A study of Mus musculus with 4 samples.

Results

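Basophils are rare circulating granulocytes, and 87 of them were found among the 6443 cells kept from 4 single-cell RNA libraries of mouse skin around a healing wound. A kept cell, with 200 to 3000 detected genes and at most 10% of its UMIs (unique molecular identifiers, each a captured transcript) from mitochondrial genes, was a basophil if it held a UMI of *Mcpt8* and of at least 2 of the 6 genes *Il4*, *Gata2*, *Cd200r3*, *Fcer1a*, *Ms4a2* and *Il6*, and none of *Cd3g* or *C1qa*. These genes chose the cells, so their levels are a description and were not tested. Skin of C57/BL6j mice, 6 weeks old, was collected 7 days after wounding with an 8 mm punch. Both groups had injections under the skin at 4 sites around the wound every 48 h, of phosphate-buffered saline in the Control group (2 libraries) and of 100 µg of hucMSC-Exosomes, vesicles from human umbilical cord mesenchymal stem cells, in the hucMSC-Exo group (2 libraries). The study describes samples from 2 mice of each group. Groups were taken from the titles, whereas the names of the deposited files hold the letter c for Control 1 and hucMSC-Exo 1 and t for Control 2 and hucMSC-Exo 2. If these letters stand for control and treated, hucMSC-Exo 1 and Control 2 would change places, and this was not settled. The tissue label names a section of small intestine, while the cell type label and the protocol name skin, and the keratinocyte genes *Krt5*, *Krt14*, *Krt10* and *Krt1* all had UMIs in the basophils.

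Basophils develop in bone marrow, enter tissues during allergic inflammation and parasite infection, and carry the high-affinity receptor for IgE. They store histamine and proteases in granules and, once stimulated, make interleukin 4, interleukin 13 and interleukin 6. In skin they are known as an early source of interleukin 4, which acts on monocytes, macrophages and innate lymphoid cells.

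The deposited libraries held 1098 cells in Control 1, 2422 in Control 2, 1539 in hucMSC-Exo 1 and 2119 in hucMSC-Exo 2, with 6657095, 16950639, 8198377 and 10270615 UMIs. The kept cells numbered 952, 2074, 1416 and 2001. Control 1 held 0 basophils, which allows a share of up to 0.315% (3 cells), and 0 UMIs of *Mcpt8* in all of its deposited cells. Control 2 held 56 basophils, 2.70% of its kept cells (95% Clopper-Pearson interval 2.05 to 3.49%). In hucMSC-Exo 1 it was 1.20% of kept cells (17 basophils, 95% interval 0.701 to 1.92%) and 0.700% in hucMSC-Exo 2 (14 basophils, 0.383 to 1.17%). By the titles, the Control libraries thus lay on either side of both hucMSC-Exo libraries. If Control 2 and hucMSC-Exo 1 changed places, Control would have 0 and 1.20% and hucMSC-Exo 2.70 and 0.700%, and this would not hold. The groups were not compared. Over all libraries basophils made up 1.35% of kept cells (1.08 to 1.66%) and 0.937% of kept UMIs. Intervals and limits cover counting error only. Between 0 and 2 cell barcodes were shared by any pair of libraries, and none of those cells was a basophil.

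A basophil held a median of 3405 UMIs in Control 2, 2513 in hucMSC-Exo 1 and 2877.5 in hucMSC-Exo 2, and the single cells ranged from 1325 to 7606. The rule's threshold divided few cells: of 91 kept cells with *Mcpt8*, 87 were basophils. Just inside it stood 7 cells with 2 of the 6 supporting genes, which had 1555 to 2920 UMIs and 1 to 13 UMIs of *Mcpt8*, while 23 cells had 3 of the genes, 28 had 4, 25 had 5 and 4 had 6. Just outside stood 1 cell with 1 supporting gene, with 1152 UMIs and 1 UMI of *Mcpt8*. The other 3 cells outside had *Cd3g* or *C1qa*, and 1 of them had 2 or more supporting genes. Of the 87 basophils, 6 held a single UMI of *Mcpt8*. No doublet caller was run here (the study's methods describe one); 3 basophils also met a gate of another class, 2 that of mast cells and 1 that of neutrophils.

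*Mcpt8*, which encodes a basophil protease, had 4022 CPM in Control 2, 3622 in hucMSC-Exo 1 and 2594 in hucMSC-Exo 2, where CPM is counts per 1000000 of the UMIs summed over the basophils of a library. Basophils held 98.9% of its UMIs in all kept cells. CPM of these 3' counts is not divided by transcript length, and levels of different genes are compared on that scale only. *Gata2*, a transcription factor of basophils and mast cells, had 2232 CPM in Control 2, 2115 in hucMSC-Exo 1 and 2617 in hucMSC-Exo 2, and 86 of the 87 cells held it. *Fcer1a* and *Ms4a2*, which encode the alpha and beta chains of the IgE receptor, were found in 49 and 22 cells, and *Cd200r3*, an activating surface receptor, in 44. Mast cells had higher summed levels of these 3 genes, with 809.8, 767 and 405 CPM against 335, 98.1 and 254 in basophils. All 5 markers used here for the cell type (*Mcpt8*, *Il4*, *Cd200r3*, *Ms4a2* and *Il6*) are part of the rule and cannot check it. The study annotated basophils by *Mcpt8* and *Nfil3*. *Nfil3*, which is not part of the rule, had UMIs in 49 of the 87 cells.

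Markers of other cells were counted in the basophils. Of 8 neutrophil genes, 3 had a UMI, with a summed level of 183, 112 and 4771 CPM in Control 2, hucMSC-Exo 1 and hucMSC-Exo 2, mostly *S100a9* (156 UMIs), and *Ly6g*, *Camp*, *Ltf*, *Lcn2* and *Mmp8* were at 0. All 6 mast cell genes had a UMI, mostly *Cma1* (131 UMIs), and their sum was 683, 1777 and 0 CPM. Single cells carried most of these UMIs: 1 cell held 136 of the 156 of *S100a9*, and the 131 of *Cma1* were in the 2 cells that met the mast cell gate. Of 5 macrophage genes 3 had a UMI (366, 562 and 278 CPM, mostly *Apoe*, with *C1qb* and *C1qc* at 0), as did all 4 keratinocyte genes (635, 989.9 and 857 CPM, mostly *Krt14*) and all 4 fibroblast genes (519.5, 247 and 301 CPM, mostly *Col1a1*). Eosinophil genes had 3 UMIs in all, each of *Siglecf* (*Prg2*, *Ear1* and *Ear2* at 0), 2 of 5 T cell genes had a UMI (mostly *Cd3d*, with *Cd3e*, *Trbc2* and *Trdc* at 0), and 1 of 2 platelet genes did (*Pf4*, with *Ppbp* at 0). The 3 red cell genes listed in the files were at 0 (3 UMIs would be 10.2 CPM). The tests below were repeated without the 3 basophils that met another gate, and the part of the other cells' transcripts in the remaining 84 was not tested.

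GATA factors bind DNA that holds GATAA, and *Gata2* chose the cells together with the other genes of the rule, so the 250 bases before the start of those genes were read from the RefSeq promoter table (GRCm38.p6). The 7 genes had 9 windows there, because *Il4* and *Gata2* have 2 starts each, and 4 of the 9 held GATAA on either strand, against 22.6% of 32851 windows of all genes. These were the windows of *Ms4a2* (3 matches), *Cd200r3* (2), *Fcer1a* (1) and *Il6* (1), while those of *Mcpt8*, *Il4* and *Gata2* had no match. Another 3 motif sets were searched: TGATAA or AGATAA, which contain GATAA (4 of 9 windows, 16.6% of all), TTGCGCAA or TTGCACAA, of the C/EBP type (1 of 9, 1.06%), and a motif of the NF-kB type (1 of 9, 0.204%). The 16 genes with a window among those called higher in every comparison with another class had 17 windows, of which 1 held GATAA (*Cxcr4*) and 1 a C/EBP type motif. The IgE receptor genes and *Cd200r3* are printed because they hold GATAA, a choice made after the matches were seen, with GATAA or TTATC in capitals and the gene's strand read 5′ to 3′.
*Ms4a2*, chr19:11623720-11623969, minus strand: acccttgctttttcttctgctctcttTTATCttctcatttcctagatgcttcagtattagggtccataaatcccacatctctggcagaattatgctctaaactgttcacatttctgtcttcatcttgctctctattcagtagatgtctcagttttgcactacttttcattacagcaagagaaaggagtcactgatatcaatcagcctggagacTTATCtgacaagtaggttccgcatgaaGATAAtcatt
*Cd200r3*, chr16:44943428-44943677, plus strand: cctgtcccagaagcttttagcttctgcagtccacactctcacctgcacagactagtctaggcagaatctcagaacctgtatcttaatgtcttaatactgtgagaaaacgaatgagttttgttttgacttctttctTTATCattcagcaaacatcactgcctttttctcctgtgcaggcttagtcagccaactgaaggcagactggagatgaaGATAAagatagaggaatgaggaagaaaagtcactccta
*Fcer1a*, chr1:173227230-173227479, minus strand: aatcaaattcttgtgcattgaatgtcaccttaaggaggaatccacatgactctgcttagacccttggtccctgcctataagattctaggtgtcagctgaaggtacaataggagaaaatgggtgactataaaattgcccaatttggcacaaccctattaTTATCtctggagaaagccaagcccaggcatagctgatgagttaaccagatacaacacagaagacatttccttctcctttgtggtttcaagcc
A match is a description of the letters and not a bound site.

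To see what else sets basophils apart, their summed UMIs were compared with those of 3 classes of the same libraries, chosen by gates of their own. These were group 2 innate lymphoid cells (ILC2), which also make type 2 cytokines, neutrophils, which are also granulocytes, and mast cells, which share the IgE receptor. edgeR's quasi-likelihood test was used with the library as a block, over libraries with at least 10 cells of both classes, and genes of either gate were left out. ILC2 and neutrophils could be compared in Control 2, hucMSC-Exo 1 and hucMSC-Exo 2, and mast cells in Control 2 and hucMSC-Exo 2, which leaves 1 residual degree of freedom. At an adjusted p under 0.05, 373 of 1620 genes (23%) were higher in basophils than in ILC2 and 292 (18%) lower. Against neutrophils 449 of 1873 genes (24%) were higher and 518 (27.7%) lower, and against mast cells 41 of 464 (8.84%) were higher and 44 (9.48%) lower. Either way, this was 41%, 51.6% and 18.3% of the genes tested, so that a call alone marks no gene as unusual. The counts moved with single libraries: without Control 2, 340 genes were called against ILC2 (665 with it) and 434 against neutrophils (967 with it), and without hucMSC-Exo 1 it was 1456 against neutrophils. Leaving out Control 2, hucMSC-Exo 1 or hucMSC-Exo 2 moved the fold by more than 1.5 times for 14 of 63, 18 of 72 and 5 of 72 called genes named against ILC2, and for 21 of 87, 8 of 95 and 12 of 95 against neutrophils. The comparison with mast cells could not be fitted without Control 2 or hucMSC-Exo 2, and its 85 calls became 161 to 207 under 5 of the other alternatives. The classes also differed in depth, with medians of 3271 UMIs per basophil, 4540.5 per ILC2, 2150.0 per neutrophil and 1196 per mast cell, and its part in the calls was not tested beyond the thinned cells of the sensitivity analysis.

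Genes were then followed in 12 lists by role, 173 genes in all, of which 170 are named in the files (*Il3*, *Il9* and *Il5ra* are not). Against ILC2, 56 of 87 listed genes tested were higher and 6 lower, with a median log2 fold change of 2.77 (-0.12 over all genes tested). Against neutrophils it was 58 and 27 of 102, median 1.22 (-0.16 over all), and against mast cells 17 and 6 of 55, median 0.80 (0.13 over all). Of the 58 listed genes higher than in neutrophils, 40 were called without Control 2 (5 were not tested) and 40 without a filter on low counts. Of the 56 higher than in ILC2, 47 were called without Control 2 (8 not tested) and 52 without the filter. The lists hold genes known from basophils and were chosen with earlier results of these data known. Their medians beside those over all genes are thus a description. A gene low in both classes was not tested, so these counts describe the genes that passed and not the whole lists. Of the listed genes tested, 14 had at most 3 UMIs in ILC2, 4 in neutrophils and 11 in mast cells. These passed the filter through basophils alone. In basophils, 3 genes tested against neutrophils had so few UMIs, and none tested against ILC2 or mast cells. The counts of each list under the alternatives include genes that pass the filter there. A log2 fold change is basophils over the other class. The value after ± is its size divided by the square root of the test's F statistic. It is used as a standard error and is no spread over libraries. A called gene went the same way in every library compared unless a number is given. Where an alternative lost a call, its adjusted p follows the name of the alternative, and an alternative that left the sums of a comparison as they were is not counted. Where leaving out 1 library moved a called log2 fold change by more than 1.5 times as a fold, the value without it is given. A fold against a class without UMIs is the bound that 3 UMIs over its summed libraries would give. Where a class held 1 to 3 UMIs, the ratio of summed CPM is given with its counting interval.

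Secreted proteins come first. *Il4* encodes interleukin 4 and is part of the rule. Its level in basophils was 4426 CPM in Control 2, 2025 in hucMSC-Exo 1 and 1668 in hucMSC-Exo 2, and basophils held 97.1% in Control 2 (95% interval 95.9 to 98.1%), 89.1% in hucMSC-Exo 1 (95% interval 81.3 to 94.4%) and 47.7% in hucMSC-Exo 2 (39.5 to 56.0%) of its UMIs in the kept cells. *Il6*, for interleukin 6 and also part of the rule, had 6326 CPM in Control 2, 3397 in hucMSC-Exo 1 and 3937 in hucMSC-Exo 2, and basophils held 89.8% in Control 2 (95% interval 88.1 to 91.3%), 74.0% in hucMSC-Exo 1 (95% interval 67.4 to 79.9%) and 61.2% in hucMSC-Exo 2 (55.1 to 66.9%) of its UMIs. Both levels and both shares were highest in Control 2, the library with the most basophils. *Il13*, for interleukin 13, is not part of the rule and had 443 CPM in Control 2, 292 in hucMSC-Exo 1 and 232 in hucMSC-Exo 2 in basophils against 195, 208 and 131 CPM in ILC2 of the same libraries (log2 fold change 1.47 ± 0.30, adjusted p = 0.00529, not called without a filter on low counts at 0.171). In neutrophils it had no UMI (at least 252-fold, adjusted p = 6.92e-10), and it was not tested against mast cells, which had 192 CPM over all libraries. Without Control 2, *Il13* was not called against ILC2 (log2 fold change 1.16, adjusted p = 0.0673, and adjusted p 0.00361 to 0.171 over 9 alternatives). Basophils held 34.6% in Control 2 (95% interval 28.9 to 40.6%), 6.31% in hucMSC-Exo 1 (95% interval 3.40 to 10.5%) and 4.20% in hucMSC-Exo 2 (2.03 to 7.59%) of its UMIs. Most *Il13* transcripts were thus in other cells, and T cells, which were far more numerous, had 39.3 CPM of it. *Il5*, an eosinophil growth factor that ILC2 had at 458 CPM, was at 0 in basophils (3 UMIs would be 10.2 CPM), as were *Il10* and *Csf2*.

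The chemokines *Ccl3* and *Ccl4* attract monocytes and other leukocytes. *Ccl4* had 64219 CPM in Control 2, 47648 in hucMSC-Exo 1 and 60799 in hucMSC-Exo 2, and *Ccl3* had 43549 CPM in Control 2, 24836 in hucMSC-Exo 1 and 41829.8 in hucMSC-Exo 2. Together these were 6.12% and 4.05% of all UMIs in basophils, and 86 and 85 of the 87 cells held them. Neutrophils of the same libraries had 1577, 283 and 799 CPM of *Ccl4* (log2 fold change 6.48 ± 0.37, or 5.82 without hucMSC-Exo 1, adjusted p = 3.76e-12) and 1258, 1347 and 1079 CPM of *Ccl3* (log2 fold change 5.10 ± 0.34, adjusted p = 4.79e-11). ILC2 had 403, 2.21 and 0 CPM of *Ccl4* (log2 fold change 10.34 ± 1.07, or 14.72 without Control 2 and 9.25 without hucMSC-Exo 1, adjusted p = 0.000204), and mast cells 275 and 0 CPM (log2 fold change 9.21 ± 1.24, adjusted p = 0.0333). Every basophil library was above every library of these 3 classes for both genes. *Ccl3* had 2 UMIs in ILC2 (ratio of summed CPM 14437, 95% interval 3996 to 119222, adjusted p = 2.76e-07) and 1 in mast cells (ratio of summed CPM 1242, 95% interval 223 to 49077, adjusted p = 0.0296). The genes are neighbours on chromosome 11, 13.2 kb apart (GENCODE M21, GRCm38).

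*Ccl6* and *Ccl9*, which encode myeloid chemokines of mice, lie 9.20 kb apart on the same chromosome and were also high. *Ccl6* had 10554 CPM in Control 2, 6659 in hucMSC-Exo 1 and 8014 in hucMSC-Exo 2 against 806, 559 and 853 CPM in neutrophils (log2 fold change 3.73 ± 0.28, adjusted p = 4.1e-10). *Ccl9* had 5407 CPM in Control 2, 4904 in hucMSC-Exo 1 and 4239 in hucMSC-Exo 2 against 145, 134 and 45.8 CPM in neutrophils (log2 fold change 5.91 ± 0.35, adjusted p = 4.9e-12). Neither had a UMI in ILC2 or mast cells, so that *Ccl6* was at least 2282-fold, adjusted p = 6.88e-06 against ILC2 and at least 96.9-fold, adjusted p = 0.0296 against mast cells, and *Ccl9* at least 1227-fold, adjusted p = 7.09e-06 and at least 49.8-fold, adjusted p = 0.0296. *Cxcl2*, which attracts neutrophils, had 29858 CPM in Control 2, 28683 in hucMSC-Exo 1 and 25802 in hucMSC-Exo 2, but neutrophils had 22577, 28664 and 16232 CPM and the difference was not called (log2 fold change 0.57 ± 0.27, adjusted p = 0.0832). With the basophils that met another gate left out it was called (log2 fold change 0.61, adjusted p = 0.00955, and adjusted p 0.00955 to 0.957 over 10 alternatives). It was higher than in ILC2 (log2 fold change 10.18 ± 0.24, adjusted p = 1.81e-07) and mast cells (log2 fold change 6.68 ± 0.81, adjusted p = 0.0297). *Cxcl3* had 375 CPM in Control 2, 22.5 in hucMSC-Exo 1 and 0 (3 UMIs would be 69.5) in hucMSC-Exo 2 and was lower than in neutrophils (log2 fold change -3.18 ± 0.49, or -7.02 without Control 2, adjusted p = 1.19e-05). *Ccl2* and *Ccl7*, for monocyte-attracting chemokines whose genes lie 8.30 kb apart, were compared with mast cells in Control 2 and hucMSC-Exo 2. There *Ccl2* had 72.2 and 46.3 CPM in basophils against 7002 and 5016 CPM in mast cells (log2 fold change -6.20 ± 0.28, adjusted p = 0.0296). *Ccl7* had 14.4 and 23.2 CPM (4 UMIs) against 19220.2 and 10455 CPM (log2 fold change -9.46 ± 0.46, adjusted p = 0.0296). *Ccl5*, *Ccl12*, *Ccl17* and *Ccl22* were at 0 in basophils. Over the list of 15 chemokines, 4 of 8 tested genes were higher and 1 lower against neutrophils (median 2.15, and 4 to 5 and 1 over the alternatives). It was 5 and 2 of 7 against mast cells (median 9.21, or 6.60 with genes at 0 at their bound, and 5 to 6 and 2 over the alternatives). Against ILC2 only 5 of the 15 were tested, 3 of which had at most 3 UMIs in ILC2 and passed the filter through basophils, so the list is not counted there. Against mast cells 3 of the 7 passed in that way.

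Growth factors formed the next group. *Csf1*, for the macrophage growth factor M-CSF, had 1438 CPM in Control 2, 809.9 in hucMSC-Exo 1 and 1320.2 in hucMSC-Exo 2 in basophils and 142, 86.6 and 327 CPM in neutrophils (log2 fold change 3.06 ± 0.33, or 2.46 without Control 2, adjusted p = 8.32e-08). In ILC2 it had 2 UMIs (ratio of summed CPM 473, 95% interval 130.1 to 3919.9, adjusted p = 9.12e-06), and against mast cells it was not called (log2 fold change 2.68 ± 0.99, adjusted p = 0.145, but called under 4 of 6 alternatives, adjusted p 8.04e-06 to 0.158). *Osm*, for oncostatin M, an interleukin 6 family cytokine that acts on keratinocytes and fibroblasts, had 2150.3 CPM in Control 2, 1439.8 in hucMSC-Exo 1 and 1829.8 in hucMSC-Exo 2 against 169.8, 181 and 159 CPM in neutrophils (log2 fold change 3.67 ± 0.31, adjusted p = 1.56e-09). Mast cells had 343 and 212 CPM of it (log2 fold change 3.21 ± 0.32, adjusted p = 0.0296, not called with DESeq2 at 0.059). Its neighbour *Lif*, 16.5 kb away on chromosome 11, encodes a cytokine of the same family and had 322 CPM in Control 2, 45.0 in hucMSC-Exo 1 and 162 in hucMSC-Exo 2, and did not pass the filter on low counts. *Hgf*, for hepatocyte growth factor, had 534 CPM in Control 2, 472 in hucMSC-Exo 1 and 672 in hucMSC-Exo 2, no UMI in ILC2 (at least 129.5-fold, adjusted p = 7.18e-05) and 5 UMIs in neutrophils (log2 fold change 8.08 ± 0.52, or 7.32 without Control 2 and 10.31 without hucMSC-Exo 2, adjusted p = 2.56e-11). It was not called against mast cells (ratio of summed CPM 16.0, 95% interval 2.83 to 637, adjusted p = 0.0651, but called under 5 of 6 alternatives, adjusted p 8.28e-05 to 0.104). All of these were present in each library that held basophils. *Il1b*, for the inflammatory cytokine interleukin 1 beta, had 16452 CPM in Control 2, 13363 in hucMSC-Exo 1 and 9519 in hucMSC-Exo 2. It exceeded neutrophils, which had 4995, 6056 and 4727 CPM (log2 fold change 1.51 ± 0.27, adjusted p = 8.62e-05, not called without a filter on low counts at 0.107). Its antagonist *Il1rn* went the other way, with 86.6 CPM in Control 2, 0 (3 UMIs would be 67.5) in hucMSC-Exo 1 and 69.5 in hucMSC-Exo 2 against 751, 669 and 709.8 CPM in neutrophils (log2 fold change -3.20 ± 0.42, or -4.33 without Control 2, adjusted p = 1.46e-06). *Tnf*, for tumour necrosis factor, had 178 CPM in Control 2, 157 in hucMSC-Exo 1 and 857 in hucMSC-Exo 2. *Tnf* was above neutrophils (log2 fold change 2.73 ± 0.42, or 3.37 without Control 2 and 1.79 without hucMSC-Exo 2, adjusted p = 1.04e-05) and ILC2 (log2 fold change 4.29 ± 0.45, or 4.90 without Control 2, adjusted p = 0.000204). It was not called against mast cells, which had 549 and 283 CPM (log2 fold change 0.30 ± 0.95, adjusted p = 0.832). Its 81 UMIs were in 17 cells, with 87.7% of them in 9 cells. *Areg*, a growth factor for epithelium that ILC2 and T cells express, was not called against ILC2 (log2 fold change -1.27 ± 0.47, adjusted p = 0.064), with 223 CPM in basophils and 1563 in T cells. It was called lower without hucMSC-Exo 2 (log2 fold change -1.51, adjusted p = 0.0228), with at least 1 supporting gene (log2 fold change -1.42, adjusted p = 0.0355) and without a filter on low counts (log2 fold change -1.55, adjusted p = 0.0354, and adjusted p 0.0228 to 0.319 over 8 alternatives). Over the 19 cytokines and growth factors, 7 of 10 tested genes were higher and 0 lower against ILC2 (median 3.47, and 4 to 8 and 0 to 2 over the alternatives). It was 7 and 1 of 11 against neutrophils (median 1.91, and 6 to 9 and 1 over the alternatives) and 2 and 0 of 5 against mast cells (median 3.21, and 1 to 5 and 0 over the alternatives). Of the genes tested, 3 had at most 3 UMIs in ILC2, 1 in neutrophils and 1 in mast cells. These passed the filter through basophils alone.

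**Figure D1:**
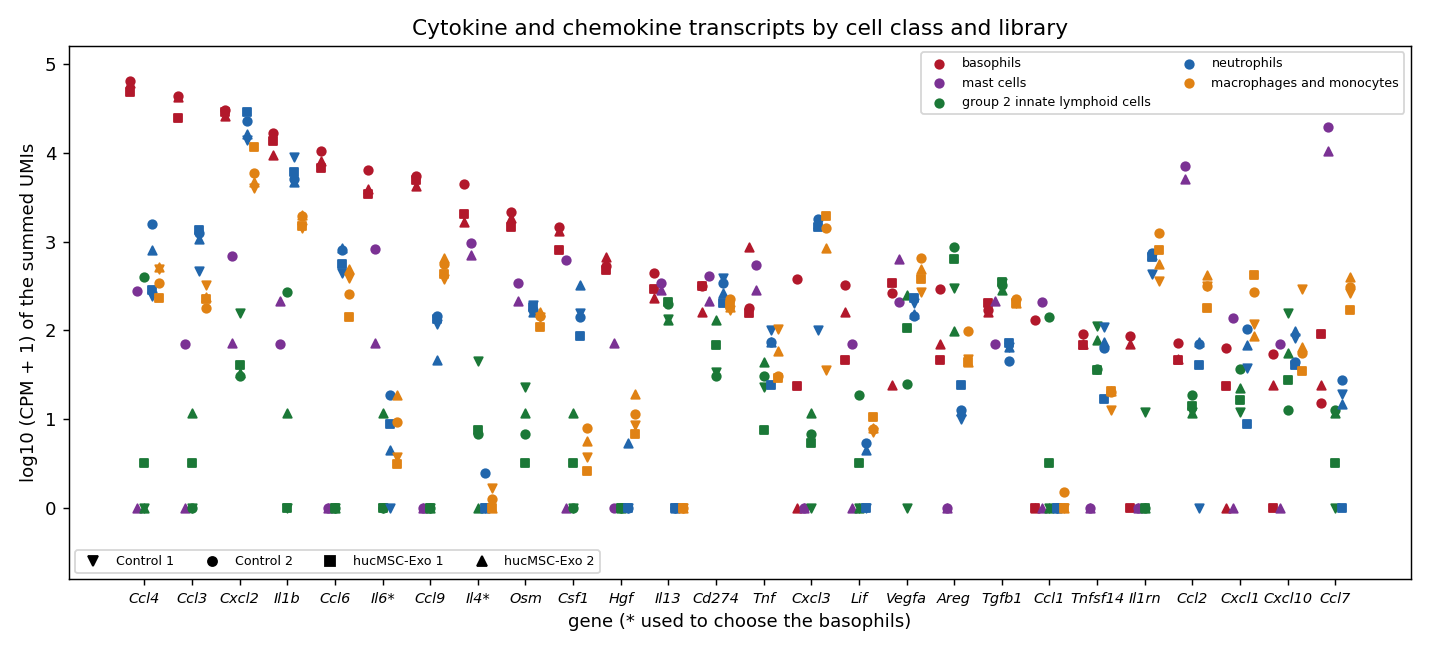
Level (log10 of CPM + 1) of the 26 ligand genes with more than 3 UMIs in basophils, ordered by their level in basophils, with 1 point for each class and library of at least 10 cells. *Ccl4* and *Ccl3* lie highest in basophils, and *Ccl2* and *Ccl7* lie highest in mast cells.

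The share of a transcript that basophils held was then taken for all 36 ligand genes, which are *Il4*, *Il6* and the lists of cytokines and chemokines. Of these, 34 had a UMI in the kept cells, and 9 of the 36 had none in basophils, *Il3* and *Il9* counted among them. The genes of the rule aside, basophils, with 0.937% of all UMIs, held more than 50% of the UMIs of 3 of 32 genes with a UMI (*Ccl3*, *Ccl4* and *Hgf*), more than 10% of 10 and under 1% of 17. *Il4* and *Il6* helped to choose the cells and were not counted with them (88.8% and 83.1% over all libraries). These pooled shares rested on Control 2, without which they were 39.7% for *Ccl3*, 41.7% for *Ccl4*, 37.6% for *Hgf*, 59.6% for *Il4* and 63.8% for *Il6*. With no upper limit on genes per cell the share of *Hgf* was 47.2% (53.5% with it). The basophil level was above that of each other class with at least 10 cells, in all 3 libraries, for 10 of these 32 genes: *Il1b*, *Csf1*, *Lif*, *Osm*, *Hgf*, *Ccl3*, *Ccl4*, *Ccl6*, *Ccl9* and *Cxcl2*. This order of levels was not tested outside ILC2, neutrophils and mast cells. In hucMSC-Exo 1, mast cells (5) and natural killer cells (9) were too few to be included. There *Lif* rested on 2 UMIs in basophils, and *Cxcl2* was barely above neutrophils, from which it was not called different in the main test. For *Ccl3* the share was 79.7% in Control 2 (95% interval 78.9 to 80.4%), 49.4% in hucMSC-Exo 1 (95% interval 47.3 to 51.5%) and 44.0% in hucMSC-Exo 2 (42.5 to 45.5%). For *Ccl4* it was 78.1% in Control 2 (95% interval 77.5 to 78.7%), 58.3% in hucMSC-Exo 1 (95% interval 56.6 to 59.9%) and 44.3% in hucMSC-Exo 2 (43.1 to 45.6%). For *Hgf* it was 66.1% in Control 2 (95% interval 58.4 to 73.2%), 52.5% in hucMSC-Exo 1 (95% interval 36.1 to 68.5%) and 36.2% in hucMSC-Exo 2 (25.8 to 47.8%). All 3 shares were highest in Control 2 and lowest in hucMSC-Exo 2, in the order of the basophils' share of cells. The genes between 10% and 50% over all libraries were *Lif* (32.9%), *Ccl6* (32.2%), *Csf1* (31.9%), *Osm* (20.5%), *Ccl9* (18.5%), *Ccl1* (15.4%) and *Il13* (14.1%). Without Control 2 the shares of these genes were, in the same order, 8.57, 14.2, 12.9, 9.28, 9.54, 0 and 4.20%, each lower by more than 1.5 times. Without hucMSC-Exo 2 the share of *Csf1* was 51.0% and that of *Ccl1* 23.9%, both higher by more than 1.5 times. The share of *Ccl1* was that of 1 cell in Control 2, which also met the mast cell gate, and it was 0 without the basophils that met another gate. With no upper limit on genes per cell *Lif* was at 21.4%. For *Il1b* and *Cxcl2*, which the far more numerous neutrophils and macrophages also express, it was 9.02% and 6.12%, and 3.66% and 2.77% without Control 2.

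Over all kept cells, *Ccl3* had 206 CPM in Control 1, 1011 in Control 2, 346 in hucMSC-Exo 1 and 453 in hucMSC-Exo 2. Without the basophils it had 206, 209, 176 and 255 CPM. *Ccl4* had 378, 1519.7, 563 and 654 CPM with them and 378, 339, 236 and 366 without. Control 2 was thus the highest library for both genes with the basophils and not without them, and Control 1, with no basophil, was the lowest for both with them.

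**Figure D2:**
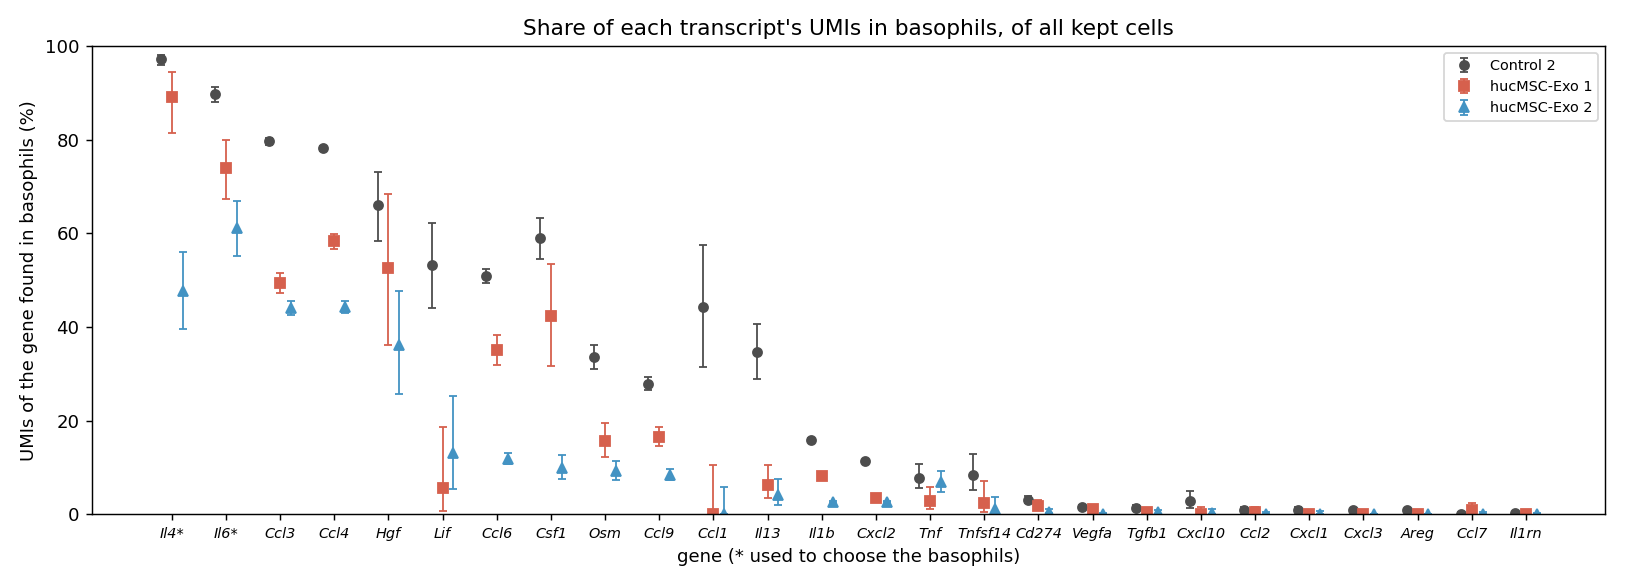
Percentage of each ligand gene's UMIs that were in basophils, of all kept cells, for the 26 genes with more than 3 UMIs in basophils, with 95% Clopper-Pearson intervals. Points are the 3 libraries with basophils; the shares run from more than 50% over all libraries for *Il4*, *Il6*, *Ccl3*, *Ccl4* and *Hgf* to under 1%.

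Granule proteins and histamine were followed next. *Gzmb*, for the serine protease granzyme B, had 8144 CPM in Control 2, 5287 in hucMSC-Exo 1 and 4099.6 in hucMSC-Exo 2 and was found in 72 of the 87 basophils. Mast cells had 686 and 565 CPM of it (log2 fold change 3.61 ± 0.34, adjusted p = 0.0296) and ILC2 23.7, 0 and 10.9 CPM (log2 fold change 10.04 ± 0.50, or 11.35 without Control 2 and 9.07 without hucMSC-Exo 1, adjusted p = 7.09e-06), and neutrophils had 1 UMI (ratio of summed CPM 13819.5, 95% interval 2478 to 546099, adjusted p = 1.59e-14). Natural killer cells, known for this protease, had 489 CPM over all libraries, and basophils held 36.3% of its UMIs. The 2 basophils that also met the mast cell gate held 242 of the 2105 UMIs of *Gzmb* in basophils. Without the basophils that met another gate, its level in Control 2 was 7205 CPM, and all 3 of its calls held. *Hdc*, which encodes the enzyme that makes histamine, had 5647 CPM in Control 2, 5849 in hucMSC-Exo 1 and 6717 in hucMSC-Exo 2 and was found in all 87 cells. It was above neutrophils, which had 2201, 1693 and 1931 CPM (log2 fold change 1.86 ± 0.25, adjusted p = 2.22e-06), and not called against mast cells (log2 fold change 0.85 ± 0.22, adjusted p = 0.0832). The call of *Hdc* against mast cells changed with the processing (called under 4 of 6 alternatives, adjusted p 0.0123 to 0.792). *Slc18a2*, for the transporter that loads histamine into granules, was likewise above neutrophils (log2 fold change 6.74 ± 0.56, or 5.90 without Control 2 and 7.57 without hucMSC-Exo 2, adjusted p = 1.38e-09) and not called against mast cells (log2 fold change -0.31 ± 0.49, adjusted p = 0.669). *Cpa3*, for a carboxypeptidase of mast cell granules, had 452 CPM in Control 2, 652 in hucMSC-Exo 1 and 556 in hucMSC-Exo 2. *Cpa3* was above ILC2 (log2 fold change 8.52, or 7.24 without hucMSC-Exo 1 and 10.34 without hucMSC-Exo 2). It was also above neutrophils (log2 fold change 8.89, or 8.24 without Control 2 and 10.17 without hucMSC-Exo 2). *Cpa3* was below mast cells, which had 13042 and 12998 CPM (log2 fold change -4.34 ± 0.26, adjusted p = 0.0296). The 2 basophils that met the mast cell gate held 65 of its 147 UMIs. Without the basophils that met another gate it had 228 CPM in Control 2, 278 in hucMSC-Exo 1 and 647 in hucMSC-Exo 2. All 3 of its calls held without them. *Serpinb1a*, for a protease inhibitor, was also below mast cells (log2 fold change -2.63 ± 0.34, adjusted p = 0.0319, not called with DESeq2 at 0.0981 or without a filter on low counts at 0.0634). Of its 106 UMIs in basophils, 14 were in the 2 cells that met the mast cell gate. *Srgn*, for the granule proteoglycan serglycin, had 13854 CPM in Control 2, 13880.5 in hucMSC-Exo 1 and 10608 in hucMSC-Exo 2, which did not differ detectably from neutrophils (log2 fold change 0.27 ± 0.26, adjusted p = 0.394) and exceeded mast cells (log2 fold change 1.75 ± 0.30, adjusted p = 0.0452, not called with DESeq2 at 0.297). *Prss34*, for a basophil and mast cell protease, had 16 UMIs, all in 3 basophils of Control 2, and no UMI in any other kept cell. Over the 11 granule genes, 7 of 8 tested genes were higher and 0 lower against ILC2 (median 6.51, and 5 to 8 and 0 over the alternatives). It was 6 and 1 of 8 against neutrophils (median 3.90, and 6 to 7 and 0 to 1 over the alternatives) and 2 and 2 of 7 against mast cells (median 0.50, and 1 to 3 and 1 to 2 over the alternatives). Of the genes tested, 2 had at most 3 UMIs in ILC2 and 2 in neutrophils. These passed the filter through basophils alone.

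Among enzymes of lipid mediators and steroids, *Ptgs2*, for the prostaglandin-forming enzyme COX-2, had 3872 CPM in Control 2, 2227 in hucMSC-Exo 1 and 1783 in hucMSC-Exo 2 against 738, 591 and 618 CPM in neutrophils (log2 fold change 2.19 ± 0.29, adjusted p = 1.26e-06), and no UMI in mast cells (at least 33.6-fold, adjusted p = 0.0296). *Alox5ap*, for a protein that leukotriene synthesis needs, had 1323 CPM in Control 2, 1102 in hucMSC-Exo 1 and 1482 in hucMSC-Exo 2. *Alox5ap* was above neutrophils (log2 fold change 0.98 ± 0.26, adjusted p = 0.00337, not called in thinned cells at 0.0886 or without a filter on low counts at 0.774) and ILC2 (log2 fold change 6.79 ± 0.78, or 10.98 without Control 2 and 5.88 without hucMSC-Exo 1, adjusted p = 0.000324). Without Control 2 it was not called against neutrophils (log2 fold change 0.82, adjusted p = 0.0558, and adjusted p 0.000238 to 0.774 over 10 alternatives). *Cyp11a1*, for the enzyme that starts steroid synthesis from cholesterol, had 1328 CPM in Control 2, 1349.8 in hucMSC-Exo 1 and 973 in hucMSC-Exo 2 and was found in 84 of the 87 cells. It had no UMI in ILC2 (at least 304-fold, adjusted p = 3.66e-05) or neutrophils (at least 827-fold, adjusted p = 2.47e-12), while mast cells had 412 and 1625 CPM (log2 fold change 0.68 ± 0.76, adjusted p = 0.548). *Alox15*, for a lipoxygenase, had 21 UMIs in 14 basophils, 84.0% of its UMIs in the kept cells, and was not tested at that depth. *Ltc4s*, *Hpgds* and *Ptgs1* had 1 UMI each in basophils, and *Pla2g7*, for an enzyme that degrades platelet-activating factor, was below neutrophils (ratio of summed CPM 0.00983, 95% interval 0.000248 to 0.0549, adjusted p = 1.98e-07). Of the 12 genes in this list, 3 of 3 tested genes were higher and 0 lower against ILC2 (median 7.17, and 3 to 5 and 0 over the alternatives). It was 3 and 1 of 4 against neutrophils (median 1.58, and 2 to 5 and 1 over the alternatives) and 2 and 0 of 3 against mast cells (median 4.09, and 2 and 0 over the alternatives). The 2 called against mast cells, *Ptgs2* and *Alox5ap*, had at most 3 UMIs there and passed the filter through basophils alone. The same held for 1 gene against ILC2 and 1 against neutrophils, while 1 tested against neutrophils had at most 3 UMIs in basophils.

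Receptors and their signalling proteins follow. *Fcer1g*, for the signalling chain of the IgE receptor, had 1578 CPM in Control 2, 1169.8 in hucMSC-Exo 1 and 1482 in hucMSC-Exo 2. *Fcer1g* was above ILC2 (log2 fold change 3.11 ± 0.28, adjusted p = 0.0001) and below neutrophils, which use it with other receptors and had 2943, 3055 and 3106 CPM (log2 fold change -0.88 ± 0.27, adjusted p = 0.0084). The kinase genes *Lyn* and *Syk* and the phosphatase gene *Inpp5d*, which act after the receptor, had 37.2, 44.0 and 33.8 CPM in basophils and were below neutrophils (log2 fold change -2.76 ± 0.50, or -4.79 without Control 2, adjusted p = 7.3e-05, log2 fold change -3.14 ± 0.42, adjusted p = 1.55e-06 and log2 fold change -1.58 ± 0.56, adjusted p = 0.0219, not called with DESeq2 at 0.0647). *Lat2*, for an adaptor, was above neutrophils (log2 fold change 5.35 ± 0.53, adjusted p = 1.88e-08) and ILC2 (log2 fold change 2.77 ± 0.50, adjusted p = 0.00308). Against mast cells, with 824 and 918 CPM, it was lower in both libraries but not called (log2 fold change -1.49 ± 0.58, adjusted p = 0.152, but called under 2 of 6 alternatives, adjusted p 0.0299 to 0.946). *Fcer1g* was not called there either (log2 fold change -0.49 ± 0.24, adjusted p = 0.226). Over the 13 genes of IgE signalling, 2 of 5 tested genes were higher and 0 lower against ILC2 (median 0.78, and 1 to 5 and 0 over the alternatives). It was 1 and 4 of 7 against neutrophils (median -0.88, and 0 to 3 and 3 to 5 over the alternatives) and 0 and 0 of 2 against mast cells (median -0.99, and 0 and 0 to 1 over the alternatives).

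*Csf2rb* encodes the shared chain of the receptors for interleukin 3, interleukin 5 and GM-CSF, and *Csf2rb2* a chain of the interleukin 3 receptor alone. The 2 genes are close in sequence, so that reads may be divided between them unevenly. *Csf2rb* had 1174 CPM in Control 2, 1619.8 in hucMSC-Exo 1 and 1482 in hucMSC-Exo 2, and *Csf2rb2* had 1063 CPM in Control 2, 1147 in hucMSC-Exo 1 and 718 in hucMSC-Exo 2. Both were above neutrophils (log2 fold change 1.49 ± 0.27, adjusted p = 9.8e-05, not called without a filter on low counts at 0.0738 and log2 fold change 3.71 ± 0.32, adjusted p = 2.57e-09) and not called against mast cells. The partner chains were low: *Il3ra* had 12 UMIs and *Csf2ra* 8 in all basophils. *Il1rl1*, for the receptor of interleukin 33, had 231 CPM in Control 2, 247 in hucMSC-Exo 1 and 139 in hucMSC-Exo 2. *Il1rl1* was above ILC2 (log2 fold change 1.94 ± 0.42, adjusted p = 0.00765) and neutrophils (log2 fold change 6.30 ± 0.57, adjusted p = 5.58e-09) and below mast cells (log2 fold change -2.26 ± 0.41, adjusted p = 0.0489, not called with DESeq2 at 0.216 or without a filter on low counts at 0.539). Without hucMSC-Exo 1 its difference from ILC2 was not called (log2 fold change 1.60, adjusted p = 0.0563, and adjusted p 0.00617 to 0.0563 over 8 alternatives). Of the 65 UMIs of *Il1rl1* in basophils, 12 were in the 2 cells that met the mast cell gate. *Il18r1*, for a chain of the interleukin 18 receptor, had 226 CPM in Control 2, 247 in hucMSC-Exo 1 and 162 in hucMSC-Exo 2. *Il18r1* was above neutrophils (log2 fold change 4.47 ± 0.53, or 3.53 without Control 2, adjusted p = 2.79e-07) and not called against ILC2 (log2 fold change 0.17 ± 0.31, adjusted p = 0.699). *Crlf2*, for the receptor of the epithelial cytokine TSLP, was above ILC2 (log2 fold change 1.60 ± 0.40, adjusted p = 0.0137, not called without a filter on low counts at 0.139) and not called against neutrophils (log2 fold change 0.29 ± 0.37, adjusted p = 0.54). *Ifngr1*, for a chain of the interferon gamma receptor, was below ILC2 (log2 fold change -3.34 ± 0.37, or -4.03 without Control 2, adjusted p = 0.000251) and neutrophils (log2 fold change -1.95 ± 0.49, or -3.04 without Control 2, adjusted p = 0.00195). *Il6ra* and *Il6st*, for the receptor of interleukin 6, had no UMI in basophils (3 UMIs would be 10.2 CPM), against 70.3 CPM of *Il6ra* in neutrophils. *Il4ra* had 6 UMIs in basophils and was below neutrophils (log2 fold change -1.66 ± 0.60, or -2.28 without hucMSC-Exo 1, adjusted p = 0.023, not called with DESeq2 at 0.14), but not called without hucMSC-Exo 2 (log2 fold change -1.69, adjusted p = 0.0569, and adjusted p 0.00895 to 0.14 over 8 alternatives). Over the 18 cytokine receptor genes, 4 of 10 tested genes were higher and 1 lower against ILC2 (median 0.29, and 2 to 4 and 1 to 2 over the alternatives). It was 6 and 5 of 12 against neutrophils (median 0.64, and 2 to 7 and 3 to 7 over the alternatives) and 0 and 1 of 3 against mast cells (median 0.52, and 0 to 2 and 0 to 1 over the alternatives). Among the 6 higher than in neutrophils, 4 were called without Control 2 (not *Il18rap*, with *Il2rg* not tested). Likewise, 4 were called without a filter on low counts (not *Csf2rb* and *Il18rap*).

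Of the receptors for chemoattractants, *Cxcr4*, which retains leukocytes in bone marrow and guides them to tissue, had 1308 CPM in Control 2, 517 in hucMSC-Exo 1 and 1065 in hucMSC-Exo 2. *Cxcr4* was above ILC2 (log2 fold change 2.57 ± 0.25, adjusted p = 0.000153), neutrophils (log2 fold change 1.76 ± 0.30, adjusted p = 3.71e-05) and mast cells, which had no UMI (at least 12.1-fold, adjusted p = 0.0475). *Ccr1*, for a receptor of CCL3, had 255 CPM in Control 2, 382 in hucMSC-Exo 1 and 162 in hucMSC-Exo 2. *Ccr1* was above ILC2 (log2 fold change 3.69 ± 0.89, or 7.53 without Control 2 and 2.53 without hucMSC-Exo 1, adjusted p = 0.0125) and below neutrophils, which had 1823, 1134 and 1693 CPM (log2 fold change -2.33 ± 0.33, or -2.94 without hucMSC-Exo 1, adjusted p = 3.04e-06). The complement receptor gene *C3ar1* was above neutrophils (log2 fold change 4.69 ± 0.52, or 3.83 without hucMSC-Exo 2, adjusted p = 1.15e-07) and ILC2 (at least 35.4-fold, adjusted p = 0.000962), and *C5ar1* was above ILC2 (at least 59.5-fold, adjusted p = 0.000251) and not called against neutrophils (log2 fold change -0.19 ± 0.30, adjusted p = 0.629). Neither was tested against mast cells. *Ptafr*, for the receptor of platelet-activating factor, and *Ltb4r1*, for that of leukotriene B4, were below neutrophils (log2 fold change -1.84 ± 0.37, or -2.61 without hucMSC-Exo 2, adjusted p = 0.000225 and log2 fold change -3.01 ± 0.64, or -3.60 without Control 2, adjusted p = 0.000399). *Ptafr* was not called without Control 2 (log2 fold change -1.63, adjusted p = 0.054, and adjusted p 3.12e-08 to 0.054 over 10 alternatives). *Ptgdr2*, *Ptger4* and *Cysltr1*, for receptors of prostaglandins and leukotrienes, had no UMI in basophils, and *Ccr3* had 4. Over the 14 genes, 5 of 6 tested genes were higher and 0 lower against ILC2 (median 4.20, and 1 to 5 and 0 to 2 over the alternatives). It was 2 and 3 of 7 against neutrophils (median -0.19, and 1 to 2 and 2 to 4 over the alternatives). Of the 6 tested against ILC2, 2 (*C3ar1* and *C5ar1*) had no UMI there. These passed the filter through basophils alone and could not have been called lower. Against mast cells only *Cxcr4* was tested, which passed the filter through basophils alone. The list is thus not counted there.

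At the cell surface, *Lilrb4a*, for an inhibitory receptor, and its relative *Lilr4b* lie 4.30 kb apart on chromosome 10 and are close in sequence. *Lilrb4a* had 2468 CPM in Control 2, 1799.7 in hucMSC-Exo 1 and 2316 in hucMSC-Exo 2. *Lilr4b* had 3353 CPM in Control 2, 3779 in hucMSC-Exo 1 and 3567 in hucMSC-Exo 2. Both were above neutrophils (log2 fold change 1.18 ± 0.26, adjusted p = 0.000618, not called without a filter on low counts at 0.419 and log2 fold change 1.79 ± 0.26, adjusted p = 4.15e-06) and ILC2. Against ILC2 the log2 fold change of *Lilr4b* was 7.97, or 7.34 without hucMSC-Exo 1. Of the pair, *Lilrb4a* alone was called against mast cells (log2 fold change 3.87 ± 0.43, adjusted p = 0.0296, with log2 fold change 3.64 ± 0.72, adjusted p = 0.0581 for *Lilr4b*, but called under 6 of 6 alternatives, adjusted p 5.59e-14 to 0.0368). *Cd9*, for a tetraspanin, was above neutrophils (log2 fold change 0.91 ± 0.25, adjusted p = 0.00459, not called without a filter on low counts at 0.888), ILC2 (log2 fold change 5.69 ± 0.38, adjusted p = 1.93e-05) and mast cells (ratio of summed CPM 40.5, 95% interval 11.2 to 335, adjusted p = 0.0296). Against neutrophils *Cd9* was not called without Control 2 (log2 fold change 0.72, adjusted p = 0.0664) or without hucMSC-Exo 1 (log2 fold change 0.56, adjusted p = 0.0519, and adjusted p 0.000179 to 0.888 over 10 alternatives). *Cd69*, an early activation marker, had 1140.1 CPM in Control 2, 449.9 in hucMSC-Exo 1 and 1135 in hucMSC-Exo 2. *Cd69* was above neutrophils (log2 fold change 7.52 ± 0.42, adjusted p = 2.66e-12) and ILC2 (log2 fold change 2.82 ± 0.35, adjusted p = 0.000471), and was found in 46 of the 87 cells. Against mast cells it was not called (log2 fold change 1.72 ± 0.77, adjusted p = 0.196, but called under 2 of 6 alternatives, adjusted p 0.0029 to 0.422). *Cdh1*, for the adhesion protein E-cadherin, had 404 CPM in Control 2, 315 in hucMSC-Exo 1 and 347 in hucMSC-Exo 2 in basophils, above neutrophils (log2 fold change 4.58 ± 0.43, adjusted p = 9.76e-09) and ILC2 (log2 fold change 4.42 ± 0.35, adjusted p = 4.68e-05). It was not called against mast cells (ratio of summed CPM 11.3, 95% interval 1.99 to 452, adjusted p = 0.0859, but called under 2 of 3 alternatives, adjusted p 0.00448 to 0.219). Keratinocytes also express *Cdh1*, and *Krt14* was present in basophils, but its part was not tested. *Cd24a*, *Pirb* and *Cd33*, surface genes of myeloid cells, were below neutrophils (log2 fold change -3.96 ± 0.51, or -3.13 without Control 2 and -5.05 without hucMSC-Exo 1, adjusted p = 9.47e-07, log2 fold change -1.85 ± 0.45, adjusted p = 0.00152 and ratio of summed CPM 0.0128, 95% interval 0.000323 to 0.0716, adjusted p = 2.03e-06), with 1 UMI of *Cd33* in basophils. Over the 20 surface genes, 7 of 9 tested genes were higher and 1 lower against ILC2 (median 4.42, and 4 to 11 and 0 to 1 over the alternatives). It was 7 and 4 of 13 against neutrophils (median 0.91, and 5 to 9 and 2 to 4 over the alternatives) and 2 and 0 of 5 against mast cells (median 3.72, and 3 to 7 and 0 over the alternatives). Of the genes tested, 1 had at most 3 UMIs in ILC2 and 2 in mast cells, and these passed the filter through basophils alone. In basophils, 1 gene tested against neutrophils had so few UMIs. Among the 7 higher than in neutrophils, 5 were called without Control 2 (not *Cd9*, with *Cd244a* not tested). Likewise, 4 were called without a filter on low counts (not *Cd244a*, *Cd9* and *Lilrb4a*).

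Among transcription factors, *Cebpa*, which directs granulocyte development, had 86.6 CPM in Control 2, 315 in hucMSC-Exo 1 and 92.6 in hucMSC-Exo 2. *Cebpa* was above neutrophils (log2 fold change 4.57 ± 0.55, adjusted p = 3.9e-07) and ILC2 (ratio of summed CPM 86.9, 95% interval 14.6 to 3526, adjusted p = 0.000231). *Cebpb*, active in stimulated myeloid cells, had 4594 CPM in Control 2, 4252 in hucMSC-Exo 1 and 6647 in hucMSC-Exo 2. *Cebpb* was above ILC2 (log2 fold change 4.04 ± 0.25, adjusted p = 1.6e-05) and mast cells (log2 fold change 5.34 ± 0.56, adjusted p = 0.0296) and not called against neutrophils (log2 fold change 0.16 ± 0.26, adjusted p = 0.631). *Runx1*, which basophil development needs, was above ILC2 (log2 fold change 2.44 ± 0.26, adjusted p = 0.000222) and neutrophils (log2 fold change 1.91 ± 0.28, adjusted p = 6.82e-06). It was not called against mast cells (log2 fold change 2.06 ± 0.72, adjusted p = 0.131, but called under 5 of 6 alternatives, adjusted p 0.0137 to 0.412). *Nfil3* was also above ILC2 and neutrophils (log2 fold change 1.69 ± 0.26, adjusted p = 0.0014, not called without a filter on low counts at 0.0504 and log2 fold change 1.40 ± 0.32, adjusted p = 0.000805, not called without a filter on low counts at 0.222). *Runx3* was below ILC2 (log2 fold change -3.45 ± 0.58, or -4.06 without hucMSC-Exo 1, adjusted p = 0.00226), *Spi1* below neutrophils (log2 fold change -1.29 ± 0.34, adjusted p = 0.00247), and *Bhlhe40* below both (log2 fold change -1.49 ± 0.38, adjusted p = 0.0155, not called with DESeq2 at 0.0666 and log2 fold change -1.38 ± 0.43, or -2.10 without hucMSC-Exo 1, adjusted p = 0.00972, not called with DESeq2 at 0.0683). Without Control 2, *Nfil3* was not called against neutrophils (log2 fold change 1.21, adjusted p = 0.0638, and adjusted p 0.000142 to 0.222 over 10 alternatives). Nor was *Bhlhe40* called against neutrophils (log2 fold change -1.09, adjusted p = 0.209, and adjusted p 4.92e-05 to 0.209 over 10 alternatives) or ILC2 (log2 fold change -0.99, adjusted p = 0.177, and adjusted p 0.00337 to 0.177 over 9 alternatives). *Mitf*, a factor of mast cells, had no UMI in basophils, and mast cells had 128 CPM over all libraries. *Id2*, a factor of innate lymphoid cells, was above neutrophils (log2 fold change 1.75 ± 0.39, adjusted p = 0.000722, in 2 of 3 libraries). That call was lost without hucMSC-Exo 1 (log2 fold change 0.88, adjusted p = 0.0775) and without Control 2 (log2 fold change 1.58, adjusted p = 0.138). *Id2* was not called against ILC2 (log2 fold change -1.27 ± 0.46, adjusted p = 0.0583, but called under 4 of 10 alternatives, adjusted p 0.00218 to 0.154) or mast cells (log2 fold change -1.93 ± 0.57, adjusted p = 0.102, but called under 3 of 6 alternatives, adjusted p 0.00951 to 0.946), and lower in each of these calls. *Gata1* and *Irf8* had 1 UMI each in basophils. Over the 18 factors, 5 of 10 tested genes were higher and 2 lower against ILC2 (median 1.07, and 2 to 5 and 1 to 4 over the alternatives). It was 7 and 2 of 10 against neutrophils (median 1.40, and 1 to 7 and 1 to 2 over the alternatives) and 1 and 0 of 5 against mast cells (median 0.51, and 1 to 3 and 0 to 1 over the alternatives). Of the 10 tested against ILC2, 2 had at most 3 UMIs there and passed the filter through basophils alone. Of the 7 higher than in neutrophils, 1 was called without Control 2 (not *Id2*, *Nfil3*, *Nfkb1* and *Rel*, with *Cebpa* and *Nfatc1* not tested). Likewise, 3 were called without a filter on low counts (not *Nfatc1*, *Nfil3*, *Nfkb1* and *Rel*).

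Genes that rise soon after a stimulus, or that restrain NF-kB, were compared as 1 list of 18, and 11 of 18 tested genes were higher and 0 lower against ILC2 (median 1.85, and 9 to 15 and 0 to 1 over the alternatives). It was 14 and 1 of 17 against neutrophils (median 1.93, and 9 to 15 and 1 over the alternatives) and 2 and 1 of 17 against mast cells (median 0.61, and 1 to 5 and 0 to 4 over the alternatives). Of the 17 tested against mast cells, 2 had at most 3 UMIs there and passed the filter through basophils alone. Of the 14 higher than in neutrophils, 9 were called without Control 2 (not *Dusp1*, *Jun*, *Nfkbia*, *Nr4a3* and *Zfp36*). Likewise, 9 were called without a filter on low counts (not *Dusp1*, *Jun*, *Junb*, *Nfkbia* and *Zfp36*). *Ier3*, an early response gene, had 7855 CPM in Control 2, 8841 in hucMSC-Exo 1 and 8431 in hucMSC-Exo 2. *Ier3* was above neutrophils (log2 fold change 2.46 ± 0.27, adjusted p = 7.31e-08), ILC2 (log2 fold change 7.46 ± 0.32, adjusted p = 4.52e-06) and mast cells (log2 fold change 2.51 ± 0.24, adjusted p = 0.0296, not called with DESeq2 at 0.0934). *Tnfaip3*, for the NF-kB inhibitor A20, had 1371 CPM in Control 2, 1079.8 in hucMSC-Exo 1 and 2131 in hucMSC-Exo 2. *Tnfaip3* was above neutrophils (log2 fold change 3.32 ± 0.32, adjusted p = 1.41e-08) and ILC2 (log2 fold change 1.75 ± 0.23, adjusted p = 0.000655). *Nfkbia*, for another inhibitor of NF-kB, had 4695 CPM in Control 2, 2339.7 in hucMSC-Exo 1 and 8616 in hucMSC-Exo 2. *Nfkbia* was above the same 2 classes (log2 fold change 1.36 ± 0.32, adjusted p = 0.00125, not called without a filter on low counts at 0.221 and log2 fold change 3.59 ± 0.31, adjusted p = 7.22e-05). Without Control 2, *Nfkbia* was not called against neutrophils (log2 fold change 1.03, adjusted p = 0.136, and adjusted p 1.52e-10 to 0.221 over 10 alternatives). Neither was called against mast cells (log2 fold change 0.40 ± 0.69, adjusted p = 0.693 and log2 fold change 2.18 ± 0.76, adjusted p = 0.131, but called under 5 of 6 alternatives, adjusted p 4.57e-07 to 0.249 for *Nfkbia*). Levels were highest in hucMSC-Exo 2 for *Nfkbia* and *Tnfaip3* and even across libraries for *Ier3*. *Fos* was below neutrophils (log2 fold change -0.91 ± 0.30, adjusted p = 0.0124), and *Nr4a2* below mast cells (log2 fold change -4.96 ± 0.58, adjusted p = 0.0296). Not called against mast cells, but lower where an alternative called them, were *Fos* (log2 fold change -2.59 ± 0.77, adjusted p = 0.102, called under 3 of 6 alternatives, adjusted p 2.58e-06 to 0.279), *Nr4a3* (log2 fold change -2.18 ± 0.44, adjusted p = 0.0603, called under 3 of 6 alternatives, adjusted p 0.00137 to 0.565) and *Fosb* (log2 fold change -1.28 ± 0.61, adjusted p = 0.221, called under 1 of 6 alternatives, adjusted p 0.0478 to 0.946). Likewise not called, but higher where an alternative called them, were *Ier2* (called under 3 of 4 alternatives, adjusted p 0.00278 to 0.252) and *Junb* (called under 1 of 6 alternatives, adjusted p 0.0289 to 0.852).

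Class II antigen presentation was low. Of *H2-Aa*, *H2-Ab1* and *H2-Eb1*, which encode class II chains, basophils held 7, 9 and 1 UMIs, and each was below neutrophils (log2 fold change -2.80 ± 0.55, or -2.19 without Control 2 and -3.51 without hucMSC-Exo 1, adjusted p = 0.000193, log2 fold change -2.56 ± 0.54, or -3.71 without Control 2, adjusted p = 0.000366 and ratio of summed CPM 0.0151, 95% interval 0.000381 to 0.0845, adjusted p = 2.99e-06). Without Control 2, *H2-Aa* was not called (log2 fold change -2.19, adjusted p = 0.0578, and adjusted p 1.33e-07 to 0.0578 over 9 alternatives). *Cd74*, for the invariant chain, had 111 CPM in Control 2, 67.5 in hucMSC-Exo 1 and 0 (3 UMIs would be 69.5) in hucMSC-Exo 2, against 17428 CPM in dendritic cells over all libraries. It was below neutrophils (log2 fold change -1.62 ± 0.48, adjusted p = 0.00669, not called with DESeq2 at 0.0501) and ILC2 (log2 fold change -2.20 ± 0.42, adjusted p = 0.00425, not called without a library block at 0.184). *Ciita*, their common activator, and *Cd80*, for a costimulatory ligand, had no UMI in basophils. Of the 7 genes, 0 of 1 tested genes were higher and 1 lower against ILC2 (median -2.20, and 0 and 0 to 4 over the alternatives). It was 0 and 4 of 4 against neutrophils (median -2.68, and 0 and 2 to 5 over the alternatives), and none was tested against mast cells. Of the 4, 1 (*H2-Eb1*) had at most 3 UMIs in basophils and passed the filter through neutrophils alone. Few cell cycle transcripts were found: *Mki67* had 5 UMIs in 4 basophils and *Top2a* 3 in 3, and *Tubb5*, for a tubulin, was above neutrophils (log2 fold change 1.27 ± 0.43, adjusted p = 0.0159, not called with DESeq2 at 0.155 or without a filter on low counts at 0.616) and below ILC2 (log2 fold change -1.23 ± 0.28, adjusted p = 0.00992, not called with DESeq2 at 0.0716). Neither call of *Tubb5* held without hucMSC-Exo 1 (log2 fold change 1.02, adjusted p = 0.12 and log2 fold change -1.26, adjusted p = 0.0639), nor that against ILC2 without Control 2 (log2 fold change -1.04, adjusted p = 0.141, and adjusted p 0.0052 to 0.616 over 8 alternatives for neutrophils and adjusted p 0.00523 to 0.141 over 9 alternatives for ILC2). Of the 8 cell cycle genes, 0 of 2 tested genes were higher and 1 lower against ILC2 (median -1.54, and 0 and 0 to 3 over the alternatives). It was 1 and 0 of 1 against neutrophils (median 1.27, and 0 to 1 and 0 over the alternatives), and none was tested against mast cells.

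Of 426 genes tested against all 3 classes, 24 were called higher in basophils each time and in every library, 13 of them listed genes, and 1 was called lower each time. The comparisons share the basophil sums, so these calls are not independent. Of the 24, *Ccl3*, *Ccl6*, *Ccl9*, *Ptgs2*, *Cxcr4*, *Alox5ap*, *Cd9*, *Acod1*, *Ifitm1*, *Cks2*, *Gm12840*, *Nabp1* and *Hist1h1e* had at most 3 UMIs in mast cells. These passed that filter through basophils alone, so the counts of 24 and 1 cannot be compared. The 13 were *Ccl3*, *Ccl4*, *Ccl6*, *Ccl9*, *Gzmb*, *Osm*, *Ier3*, *Ptgs2*, *Cxcr4*, *Il1b*, *Lilrb4a*, *Alox5ap* and *Cd9*. Of these, *Cd9* and *Alox5ap* were not called against neutrophils without Control 2 (adjusted p = 0.0664 and 0.0558, and up to 0.888 and 0.774 over the alternatives). Outside the lists, the 10 with the largest values of the smallest fold change over the comparisons were named. *Acod1*, for the enzyme that makes itaconate in stimulated myeloid cells, had 5224 CPM in Control 2, 3217 in hucMSC-Exo 1 and 4331 in hucMSC-Exo 2. *Acod1* was above neutrophils (log2 fold change 1.81 ± 0.27, adjusted p = 7.44e-06), with no UMI in ILC2 (at least 1139-fold, adjusted p = 7.29e-06) or mast cells (at least 48.5-fold, adjusted p = 0.0296). *Ifitm1*, for an interferon-induced membrane protein, had 14864 CPM in Control 2, 15005 in hucMSC-Exo 1 and 11465 in hucMSC-Exo 2. *Ifitm1* was above neutrophils (log2 fold change 1.38 ± 0.26, adjusted p = 0.000112, not called without a filter on low counts at 0.197) and ILC2 (log2 fold change 8.61 ± 0.64, or 10.13 without Control 2 and 7.96 without hucMSC-Exo 1, adjusted p = 3.66e-05). *Cks2*, for a subunit of cyclin-dependent kinases, had 2275 CPM in Control 2, 719.9 in hucMSC-Exo 1 and 3405 in hucMSC-Exo 2. *Cks2* was above neutrophils (log2 fold change 2.82 ± 0.38, or 2.16 without hucMSC-Exo 2, adjusted p = 2.14e-06) and ILC2 (log2 fold change 4.93 ± 0.41, or 5.61 without hucMSC-Exo 1, adjusted p = 6.31e-05). The long noncoding RNA genes *Gm12840* and *Gm20186* had log2 fold changes of 3.72 ± 0.40 (or 2.94 without hucMSC-Exo 2, adjusted p = 6.74e-08) and 4.52 ± 0.33 (adjusted p = 2.39e-10) against neutrophils. Against the same class, *Nabp1*, for a protein that binds single-stranded DNA, had log2 fold change 2.85 ± 0.29, adjusted p = 3.77e-08, *Ifrd1* had log2 fold change 1.70 ± 0.26, adjusted p = 9.75e-06, and *Hilpda*, for a lipid droplet protein, had log2 fold change 1.60 ± 0.26, adjusted p = 2.43e-05. *Hist1h1e* (log2 fold change 3.78 ± 0.34, adjusted p = 6.05e-09), for a linker histone, and *Actg1* (log2 fold change 1.22 ± 0.25, adjusted p = 0.00029, not called without a filter on low counts at 0.372), for gamma actin, belong to families of similar sequence. Without a filter on low counts, *Il1b*, *Lilrb4a*, *Cd9*, *Alox5ap*, *Ifitm1* and *Actg1* were not called against neutrophils. With DESeq2, *Osm*, *Ier3*, *Gm20186*, *Hist1h1e* and *Hilpda* were not called against mast cells.

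Among the 87 cells, levels were taken per 10000 UMIs of each cell. *Ccl4* ranged from 0 to 1594 with a median of 582 and quartiles of 312 and 897, and *Hdc* had a median of 49.7 with quartiles of 37.0 and 78.4. *Il4* was less even, with UMIs in 58 cells and 49.2% of them in the 9 cells that held the most, against 23.1% for *Hdc* and 24.9% for *Ccl4*. At an equal depth of 1000 UMIs a cell, 50.6% of basophils held *Il4* (66.7% at full depth). At that depth 0% of macrophages and monocytes, which should lack it, held *Il4*, and 0.154% did at a full median depth of 7315.5 UMIs. *Il13* was found in 30 of the 58 cells with *Il4* and in 5 of the 29 without (51.7% and 17.2%). At equal depth it was 34.1% and 16.3%. Other ligand genes differed as much at that depth, in points or as a ratio, with 27.3% and 9.30% for *Lif*, 20.5% and 6.98% for *Tgfb1* and 79.5% and 60.5% for *Osm*. The genes of *Il4* and *Il13* lie 12.7 kb apart on chromosome 11. *Il4* was set beside each of the other ligand genes found in at least 10 basophils, *Il13* was named after the values were seen, and no test was made, since *Il4* is part of the rule. *Ccl3*, *Ccl4* and *Ccl6* were found in every cell with *Il4* and in at least 93.1% of those without. The 27 UMIs of *Ccl1* were all in 1 basophil, and the 15 of *Itga4* as well. Both were in the cell of Control 2 that met the mast cell gate, which also held 97 UMIs of *Cma1*, 36 of *Tpsb2* and 48 of *Cpa3*.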

How the data were processed

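The 4 libraries (Control 1, Control 2, hucMSC-Exo 1 and hucMSC-Exo 2) were used as deposited: raw UMI counts per gene and cell, made by the authors with Cell Ranger 6.1.2 on mm10 from droplet libraries of dissociated skin, in the subset of immune cells they had separated computationally. Kept cells had 200 to 3000 genes and no more than 10% of UMIs from mitochondrial genes. Basophils and 7 other classes were chosen by gates on UMIs, and a cell that met more than 1 of the other gates was left out. UMIs were summed per library and class and given as counts per 1000000 (CPM). Sums were compared with the quasi-likelihood test of edgeR 4.0.16 in R 4.3.3 (TMM, filterByExpr, library as a block, at least 10 cells of each class in a library, Benjamini-Hochberg threshold 0.05), with DESeq2 1.42.0 as an alternative. Other alternatives changed the gate, the filter, the block, the cell minimum and the libraries, or thinned each cell to 1000 UMIs (seed 0). Shares have Clopper-Pearson intervals, and Python 3.11.15 was used for all other steps. Groups were not compared, since Control 1 holds 0 basophils. The members and the 12 lists were chosen with earlier results of these data known. Outside the lists, the 10 genes named were called higher in every comparison and library with a mean of at least 50 CPM, by the largest of their smallest fold changes. Chosen after values were seen were the motif sets, *Il4* pairs with genes in at least 10 basophils, figure genes with more than 3 UMIs and neighbours within 50 kb. Gene positions came from GENCODE M21 (GRCm38) and promoters from RefSeq (GRCm38.p6).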

Additional observations from a re-analysis of the deposited data

Results flagged for a closer look

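Cells with more than 3000 genes were not kept, and 2 of them met the gate for basophils, while their *Mcpt8* lay above the limit that a count of 0 allows. The cell of hucMSC-Exo 1 held 16166 UMIs of 3785 genes, with 10 UMIs of *Mcpt8*, 1 of *Il4*, 5 of *Il6*, 38 of *Ccl3* and 30 of *Ccl4*. The cell of hucMSC-Exo 2 held 30444 UMIs of 4836 genes, with 13 UMIs of *Mcpt8*, 0 of *Il4*, 20 of *Il6*, 151 of *Ccl3* and 259 of *Ccl4*. Neither met the gate of another class. The kept basophils held at most 7606 UMIs, and whether these were single cells was not tested.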

How the results depend on the processing

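Of 2971 values of the named genes under the alternatives, 613 come from alternatives that leave the sums of a comparison as they were and could not differ (without Control 1 in each comparison, at least 5 cells a class against ILC2 and neutrophils, and at least 1 supporting gene or without hucMSC-Exo 1 against mast cells). Of the other 2358, 2163 kept their direction and their side of the threshold, and 40, from 19 gene comparisons, changed sign but were not called in either setting. Another 80 were no longer past the threshold, 75 were newly past it, and no called value reversed. The calls lost were most frequent without a filter on low counts (20 against neutrophils), where the median shift of log2 fold changes was -0.32 against ILC2, -0.49 against neutrophils and 0.86 against mast cells, and without Control 2 (17 against neutrophils). With DESeq2, 2 calls were lost against ILC2, 8 against neutrophils and 8 against mast cells.

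The genes called against ILC2 (665) numbered 209 in cells thinned to 1000 UMIs, where 366 genes were tested and not 1620, and 340 to 738 when 1 library was left out, the lowest without Control 2 (333 of the 340 shared with the main fit). Against neutrophils (967) they numbered 533 in thinned cells (771 genes tested) and 434 to 1456 when 1 library was left out, lowest without Control 2 (1104 genes tested) and highest without hucMSC-Exo 1. Against mast cells (85) they numbered 194 with at least 3 of the 6 supporting genes, 170 with basophils that met another gate left out, 207 with no filter on low counts, 187 with no library block and 161 with at least 5 cells a class. The cause was not tested. All 85 were among those called with at least 3 supporting genes, without cells of another gate and with no block, and 72 with no filter. DESeq2 called 453, 723 and 67 genes. Against mast cells no fit could be made in thinned cells or without Control 2 or hucMSC-Exo 2. Between the groups, no paired analysis was possible because Control 1 held 0 basophils, while the comparisons of classes were paired by library.

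The share of basophils among kept cells (1.24 to 1.37%) and, with at least 1 or 3 supporting genes or no upper gene limit, their shares of ligand UMIs moved by less than the spread between libraries, although *Hgf* fell from 53.5 to 47.2%, *Lif* from 32.9 to 21.4%, and *Cxcl10* rose from 0.709 to 1.34% with no upper limit. Leaving out 1 library, an alternative chosen after seeing the data, gave shares of 59.6 to 94.6% for *Il4*, 63.8 to 86.7% for *Il6*, 39.7 to 69.7% for *Ccl3*, 41.7 to 68.7% for *Ccl4* and 37.6 to 59.7% for *Hgf*, each lowest without Control 2, the library with the most basophils. Leaving out the basophils that met another gate, also chosen after seeing the data, took *Ccl1* from 15.4% to 0, since all its basophil UMIs were in 1 of these cells. The spread of *Ccl1* between libraries came from the same cell and is no measure of this. The other 26 shares moved by less than their spread. Thinning moved the share of basophils with a UMI beyond the spread between libraries for 95 of 140 genes and not for 45, so depth limits these shares. Limits remain. The 87 cells come from 3 libraries, 56 of them from Control 2, and sums over 17 and 14 cells are sparse. Tests rest on 1 or 2 residual degrees of freedom and treat the 3 libraries as replicates, although they come from both groups. Classes are gates on few UMIs, free RNA was not removed, and levels are RNA counts and not protein.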

Other observations

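Of the kept cells without *Mcpt8*, *Cd3g* or *C1qa*, 29 held UMIs of at least 3 of the 6 supporting genes. Of these, 21 met the gate of mast cells and 8 met no gate. By library they numbered 5 in Control 1, 10 in Control 2, 4 in hucMSC-Exo 1 and 10 in hucMSC-Exo 2.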
